A study of Mus musculus with 4 samples.

Results

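The genes described here encode the soluble part of the protein synthesis machinery: the factors that start translation on an mRNA (initiation), those that extend the peptide chain (elongation), and the aminoacyl-tRNA synthetases, which load each tRNA with its amino acid (tRNA charging). They were taken by a rule on gene symbols, from probe sets that the array annotation ties to 1 gene. No measured value entered the rule, but it was written with earlier results of these data known. Of 8251 genes measured, 70 met the rule, with 92 probe sets: 40 of initiation, 8 of elongation and 22 of tRNA charging. The initiation class also holds kinases and inhibitors that hold initiation back, and the elongation class holds enzymes that modify its factors. A change under 0 therefore does not mean the same for every member. The interferon-induced kinase gene Eif2ak2 was left out by the rule. Each gene is given by its brightest probe set, judged by the mean over all arrays.

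The study hybridised biotin-labelled RNA of cultured mouse cells to 4 single-colour arrays, 2 titled Hemangioblast and 2 titled hCD4. All cells descend from 1 ES cell line carrying a human CD4 reporter of Scl, grown on STO feeder cells with LIF, and no treatment other than differentiation in serum is named. The protocol describes embryoid body cells of day 2.75 sorted as Flk-1+ and Scl+ (the hemangioblast, a shared precursor of blood and vessel lining), and blast colonies picked and pooled after replating. The sample sources speak of differentiated hemangioblasts and of cultured hCD4 ES cells, while the design text names the populations hCD4 and Blast. The labels therefore do not settle which cells either title holds, and the groups are called by their titles. The labels do not say whether the 2 arrays under one title are separate cultures, and the spread behind the p-values may be that of technical repeats.

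Translation starts when eIF2 brings the initiator tRNA to the small ribosomal subunit, eIF3 holds that complex together, and the eIF4 factors recruit it to the capped end of the mRNA. Elongation factor eEF1A then delivers each charged tRNA, the eEF1B complex recharges eEF1A with GTP, and eEF2 moves the ribosome forward by 1 codon. Cells adjust the rate mainly at the first steps, through kinases that inactivate eIF2 and through proteins that sequester the cap-binding protein eIF4E. Embryonic stem cells are known for a low rate of protein synthesis that climbs as they differentiate.

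Values are scaled intensities, that is, the deposited intensities after all 4 arrays were brought to one trimmed mean. Changes are differences of log2(scaled intensity + 16), Hemangioblast minus hCD4, with their standard error (SE). A call means a Benjamini-Hochberg adjusted p under 0.05 in limma, adjusted over all 12422 probe sets tested, of which 4.48% were called. The factors that scaled the arrays ran from 0.936 to 1.09, arrays of one group correlated across probe sets with r of 0.961 and 0.963, and the median SE of a change was 0.27. As a check of the titles, 9 of 10 myeloid marker genes were called higher on the Hemangioblast arrays (summed scaled intensity 6586 and 7196 against 476 and 503), as were 6 of 8 erythroid markers (37733 and 40329 against 13173 and 14008). Of 10 pluripotency markers 2 were called lower (4696 and 4826 against 8083 and 6016), and of 8 hemangioblast and mesoderm markers 3 were (5049 and 4278 against 6539 and 7731). Of 6 fibroblast markers, which the feeder cells could carry, 1 was called higher and 1 lower (4359 and 4346 against 7072 and 6791), and of 5 endothelial markers 2 were called higher (2826 and 2461 against 1539 and 1853). On the Hemangioblast arrays the summed myeloid, erythroid and endothelial markers were thus higher. The summed hemangioblast and mesoderm, pluripotency and fibroblast markers were lower there. The title Hemangioblast is therefore used as a label and not as a name for the cells. The groups differ in these markers, and the part of that in the values below was not tested. In these bulk samples fewer cells of a type and less RNA per cell cannot be told apart.

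Of the 70 genes, 1 was called lower on the Hemangioblast arrays and 0 were called higher, against 1.95% and 3.43% of all genes. The called gene was Eif4a2, an RNA helicase of initiation, which fell 1.56-fold. Below the threshold most members leaned the same way: the change was under 0 for 46 of 70 (65.7%), against 47.5% of all genes, and the median change was -0.17, against 0.02 over all genes. At an unadjusted p under 0.05, 17 members were lower and 3 higher, 24.3% and 4.29% of the list, where 8.67% and 9.64% of all genes passed in those directions. Both Hemangioblast arrays lay below both hCD4 arrays for 30 members (42.9%) and above them for 8 (11.4%), where this held for 22.0% and 24.5% of all genes. No test of the list as a whole was made.

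**Figure D1:**
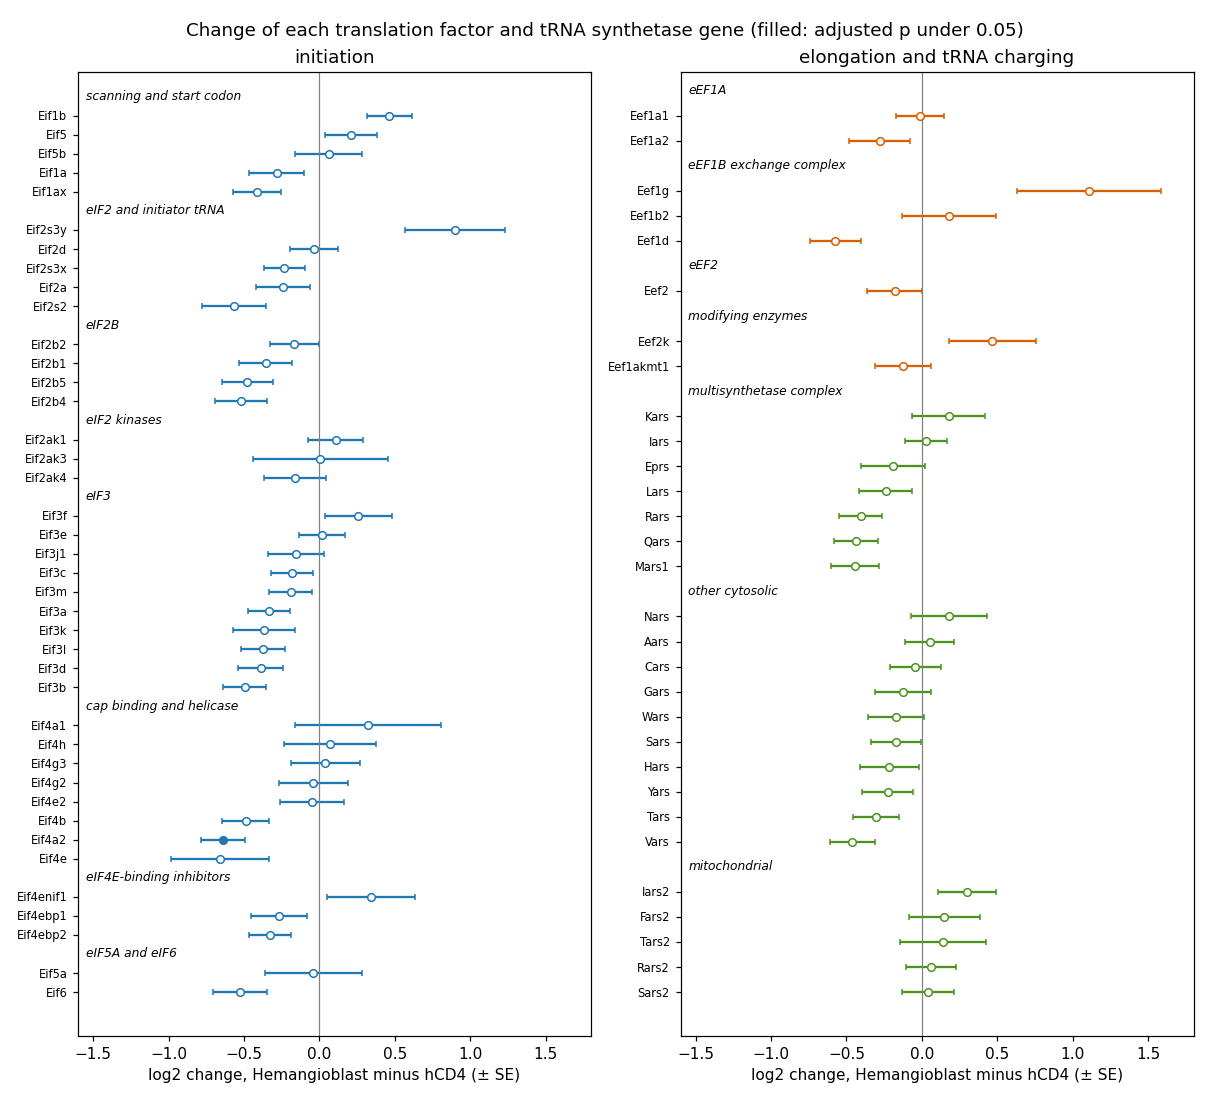
Log2 change of each of the 70 genes (x axis, Hemangioblast minus hCD4, bars are the SE of the limma fit with 2 arrays a group), grouped by role, initiation on the left, elongation (orange) and tRNA charging (green) on the right. The filled point, Eif4a2 at -0.64, is the called gene, all 4 eIF2B genes lie below 0 and all 5 genes grouped as mitochondrial synthetases above it.

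Eif4a2 encodes 1 of the 2 closely related eIF4A helicases that unwind the 5′ end of an mRNA for the scanning ribosome. Its scaled intensity was 1504 and 1373 under the Hemangioblast title, against 2121 and 2378 under hCD4. Pairs of values below are given in that order. The groups lay well apart, with a change of -0.64 (SE 0.145, adjusted p = 0.0492). The call stood close to the threshold: with the replicate number as a block the adjusted p was 0.0505, with quantile normalization 0.0629, without Hemangioblast replicate 2 it was 0.113, and with hCD4 replicate 1 or else 2 left out, 0.175 and 0.371. The other helicase gene, Eif4a1, was measured by a dim probe set at 87.5 and 179 against 162 and 56.5, and its arrays overlapped (change 0.32, SE 0.482).

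None of the remaining factors at the cap was called. Eif4b, which stimulates the helicase, was at 1400 and 1734 against 2149 and 2234 (change -0.49, SE 0.156, adjusted p = 0.148). Eif4e, the cap-binding protein itself, was at 277 and 135 against 350 and 284, so its Hemangioblast arrays differed from each other about as much as the groups did (change -0.66, SE 0.326, adjusted p = 0.385). The other probe sets of both genes were dimmer and none was called, but 1 of Eif4b ran the other way without overlap, at 43.1 and 90.9 against 20.2 and 16.9 (change 1.20, adjusted p = 0.158). Eif4g2, a scaffold used in cap-independent initiation, was at 747 and 521 against 744 and 554, with a change of -0.04. The rest of the cap group, Eif4e2, Eif4g3 and Eif4h, had changes between -0.05 and 0.07 with overlapping arrays.

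The inhibitors that hold eIF4E away from the cap were not higher, with 1 exception. Eif4ebp2 was at 1774 and 1738 against 2279 and 2140, with no overlap (change -0.33, SE 0.137, adjusted p = 0.282). Another probe set of this gene overlapped between groups with a change of -0.28, and a dim one had a change of 0.44. Eif4ebp1, the best known of these inhibitors, was at 454 and 407 against 481 and 564 (change -0.27, adjusted p = 0.564). The exception, Eif4enif1, which carries eIF4E into the nucleus, was dim at 132 and 167 against 98.6 and 132 (change 0.34, adjusted p = 0.675).

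Among the factors that scan for the start codon, Eif1a and its X-linked relative Eif1ax encode near-identical proteins. The brightest probe set of Eif1a was at 1024 and 810 against 999 and 1238 and overlapped (change -0.28, adjusted p = 0.534). Its second probe set was at 515 and 561 against 921 and 1057 and was called lower (change -0.86, SE 0.164, adjusted p = 0.0243), a call lost without Hemangioblast replicate 1 (0.0540) without either hCD4 array (0.101 and 0.222), without scaling (0.0739) and without an intensity trend (0.149). It was singled out after its values were seen, as the only called probe set among the 22 further ones of the members. Eif1ax was at 806 and 705 against 1030 and 991 (change -0.41, SE 0.156, adjusted p = 0.225). Whether the probe sets separate these alike genes was not checked. The probe sets of Eif1a, and those of Eif1ax (the other at -0.12), do not give one answer. Eif1b, a relative of the start-codon factor eIF1, went the other way at 1278 and 1136 against 897 and 842, with both Hemangioblast arrays higher (change 0.46, SE 0.152, adjusted p = 0.157). Eif5, which triggers GTP hydrolysis by eIF2 at the start codon, was at 1882 and 1393 against 1375 and 1423 and overlapped.

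**Figure D2:**
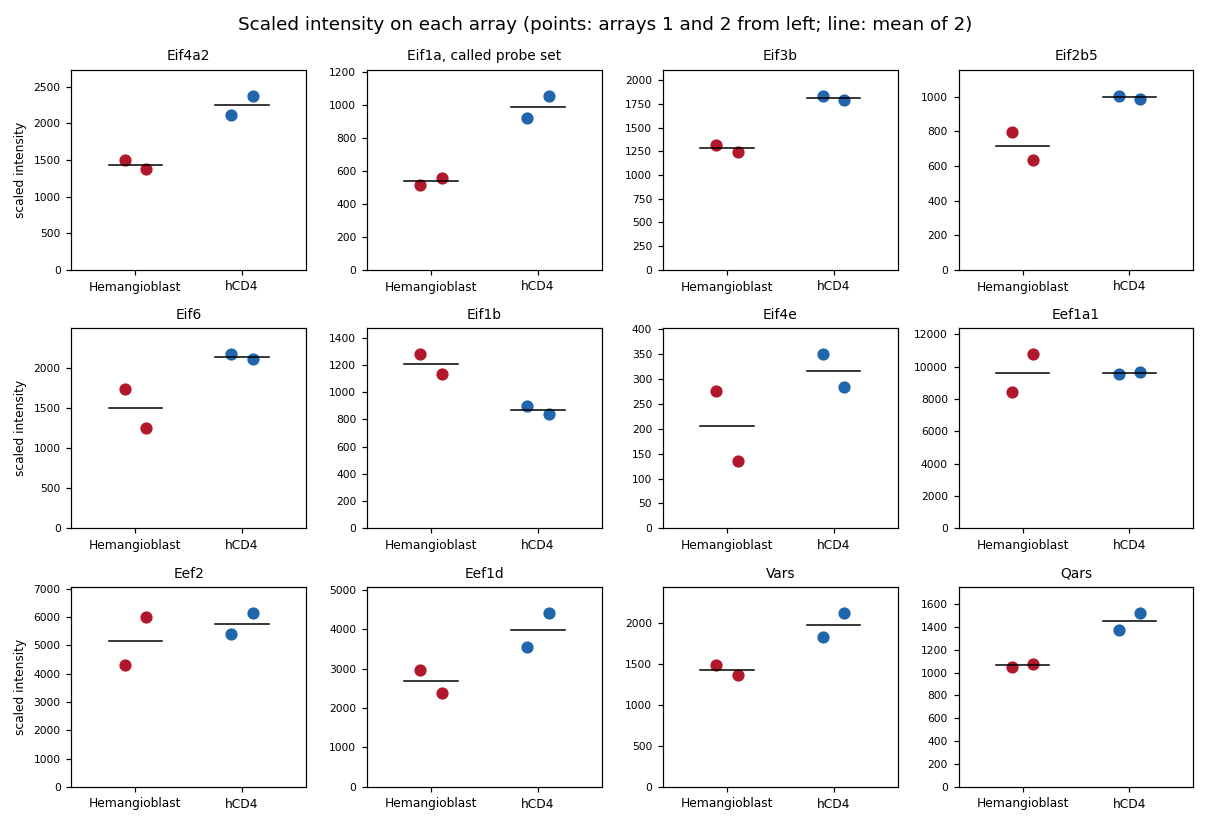
Scaled intensity (y axis, from 0) on each array for 11 members and for Eif1a by its called second probe set. Red points are the Hemangioblast arrays, blue points the hCD4 arrays and lines the mean of 2 arrays, and the groups overlap in 2 of the panels, Eef1a1 and Eef2. The panels are a selection: of all 70 members 30 were lower and 8 higher without overlap. Of all genes 22.0% and 24.5% were.

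No gene of eIF2 or eIF2B was called. eIF2 carries the initiator tRNA, and eIF2B, a complex of several subunits, reloads eIF2 with GTP after each round. All 4 measured eIF2B genes were lower on both Hemangioblast arrays than on either hCD4 array. Their changes stayed under 0 with each other scaling and with any 1 array left out. Of all genes 22.0% were lower without overlap, and 34.7% of those with a mean scaled intensity of at least 500. Eif2b5, the catalytic subunit, was at 797 and 636 against 1006 and 989 (change -0.48, SE 0.169, adjusted p = 0.193), and its second probe set gave 346 and 333 against 448 and 435 (change -0.36). Eif2b4 was at 709 and 589 against 870 and 999 (change -0.52, adjusted p = 0.161). Eif2b1 (change -0.36) and Eif2b2 (change -0.17) had adjusted p-values of 0.372 and 0.720.

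Of the eIF2 subunits, Eif2s2 (the beta subunit) was at 409 and 292 against 506 and 534 by one probe set (change -0.57, adjusted p = 0.218) and at 377 and 399 against 477 and 478 by the other (change -0.29). The X-linked gamma subunit gene Eif2s3x was at 2431 and 2445 against 2742 and 3002, a small difference with no overlap (change -0.23, SE 0.137, adjusted p = 0.485). The probe set of its Y-linked copy Eif2s3y ran the other way, at 333 and 270 against 219 and 106 (change 0.90, SE 0.332, adjusted p = 0.215). The hCD4 arrays of that probe set were far apart, and whether its signal comes from the Y copy alone was not checked.

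The kinases that switch eIF2 off showed no call. Eif2ak1, the heme-regulated kinase that matches globin synthesis to heme supply in red cells, was at 409 and 448 against 397 and 396 (change 0.11, SE 0.180, adjusted p = 0.863), next to the large difference in erythroid markers. Eif2ak4, which senses uncharged tRNA, was at 305 and 303 against 304 and 385. Eif2ak3, the kinase of the endoplasmic reticulum, was dim at 30.7 and 64.5 against 69.2 and 27.7, with overlapping arrays.

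eIF3 is the largest initiation factor, a ring of subunits that binds the small ribosomal subunit, and 10 of its genes were measured. Changes were under 0 for 8 of the 10, with a median of -0.26, against 47.5% of all genes. With median scaling it was 9 of 10, as Eif3e turned. It was 7 of 10 without Hemangioblast replicate 2, as Eif3j1 turned, or with the mean of a gene's probe sets, as Eif3l turned. Both Hemangioblast arrays lay below both hCD4 arrays for 6 of the 10. This held for 22.0% of all genes and for 34.7% of those with a mean scaled intensity of at least 500. Eif3b, a core scaffold subunit, was at 1323 and 1245 against 1838 and 1796, tight within each group (change -0.50, SE 0.140, adjusted p = 0.101). Eif3a, the largest subunit, was at 1200 and 1178 against 1509 and 1498 (change -0.33, adjusted p = 0.282). Eif3d, a subunit that can bind the cap, was at 2290 and 2172 against 2656 and 3227 (change -0.39, adjusted p = 0.242). Eif3l was at 2982 and 2500 against 3654 and 3440 (change -0.37, adjusted p = 0.252), and Eif3c and Eif3m were lower by less (changes -0.18 and -0.19). Eif3k and Eif3j1 overlapped. Eif3e, at 914 and 840 against 856 and 878, lay level (change 0.02), and Eif3f was at 269 and 270 against 245 and 202 (change 0.26). Subunits of this one complex thus ran from -0.50 to 0.26.

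Eif6, which keeps the large ribosomal subunit from joining too early, was at 1738 and 1253 against 2165 and 2102 (change -0.53, SE 0.179, adjusted p = 0.172). Without Hemangioblast replicate 1 it was called (change -0.76, adjusted p = 0.0286), and without Hemangioblast replicate 2 the change was -0.29 (adjusted p = 0.441). Eif5a, whose protein carries the unusual amino acid hypusine and helps ribosomes through difficult stretches, was dim at 155 and 104 against 109 and 158, with overlapping arrays.

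None of the elongation factors was called. Eef1a1 was at 8418 and 10758 against 9550 and 9645, with the hCD4 arrays inside the range of the Hemangioblast arrays (change -0.01, SE 0.162, adjusted p = 0.989). Eef2 was at 4305 and 5992 against 5392 and 6157 and overlapped (change -0.18, SE 0.184, adjusted p = 0.734). For both genes Hemangioblast replicate 1 was the lowest array, and without it the change was 0.16 for Eef1a1 and 0.06 for Eef2. Eef1a2, the isoform of muscle and nerve, was at 522 and 637 against 603 and 821.

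The eEF1B exchange complex gave one lower and one higher subunit, neither called. Eef1d was at 2962 and 2395 against 3564 and 4425 (change -0.57, SE 0.171, adjusted p = 0.120). It was called in 1 setting, with probe sets under a mean scaled intensity of 50 left out (adjusted p = 0.0373), while the other settings of this fit gave 0.0506 to 0.632, the highest without hCD4 replicate 2. Eef1g was at 93.0 and 50.2 against 43.8 and 10.1, a change of 1.11 (SE 0.477, adjusted p = 0.300) on a dim probe set. That change was 0.58 with an added constant of 64 and ran from 0.51 without hCD4 replicate 2 to 1.70 without hCD4 replicate 1. Eef1b2 was at 262 and 302 against 346 and 175 and overlapped. Eef2k, the kinase that halts eEF2, was at 154 and 238 against 126 and 144 (change 0.47, SE 0.290, adjusted p = 0.514), and the methyltransferase gene Eef1akmt1 had a change of -0.13. Over the 8 elongation genes 5 changes were under 0, with a median of -0.07.

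**Figure D3:**
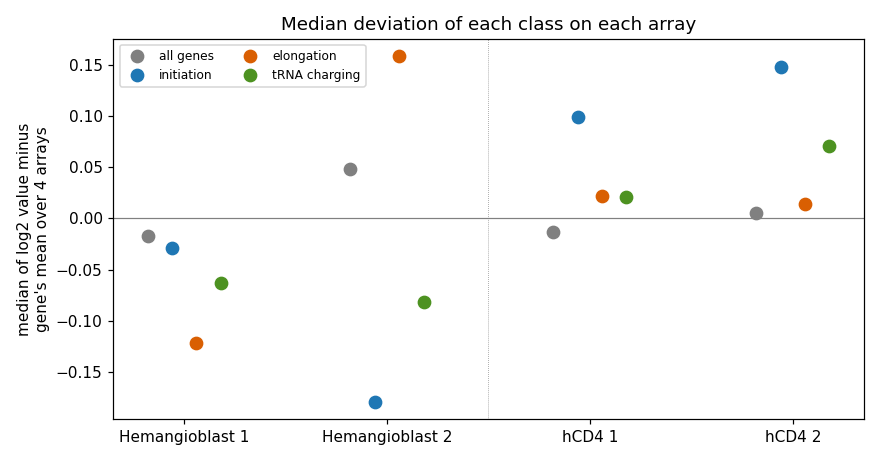
For each array (x axis), the median over a class of each gene's log2 value minus its mean over the 4 arrays (y axis), with all genes in grey. Initiation genes lie at -0.03 and -0.18 on the Hemangioblast arrays and at 0.10 and 0.15 on the hCD4 arrays, while elongation genes differ most between the 2 Hemangioblast arrays (-0.12 and 0.16).

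The array medians show how far each class followed the titles. All genes lay at -0.02 and 0.05 against -0.01 and 0.01. Initiation and tRNA charging lay below 0 on both Hemangioblast arrays and above 0 on both hCD4 arrays. The Hemangioblast arrays of initiation were apart from each other (-0.03 and -0.18), and replicate 1 lay close to all genes. For tRNA charging the 4 medians were -0.06 and -0.08 against 0.02 and 0.07. Elongation lay at -0.12 and 0.16 against 0.02 and 0.01, so its groups overlapped.

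None of the 22 synthetase genes was called, and changes ran from -0.46 to 0.30 with a median of -0.15. The lower end held Vars, which charges tRNA with valine, at 1488 and 1362 against 1827 and 2119 (change -0.46, SE 0.150, adjusted p = 0.152). In the multisynthetase complex, a particle that bundles several of these enzymes, Qars was at 1051 and 1079 against 1378 and 1524 (change -0.44, SE 0.146, adjusted p = 0.161). Mars1, for methionine, was at 805 and 831 against 1028 and 1214 (change -0.44, adjusted p = 0.197), and Rars, for arginine, at 1226 and 1192 against 1548 and 1669 (change -0.41, adjusted p = 0.187). In these 4 genes the groups did not overlap and the Hemangioblast arrays lay close together.

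In the same complex other members overlapped. Eprs, the joint glutamate and proline enzyme, was at 1080 and 696 against 996 and 987, and Kars, for lysine, at 266 and 375 against 250 and 309. Lars, for leucine, was lower without overlap, at 905 and 694 against 950 and 927 (change -0.24, adjusted p = 0.606). In all, 4 of the 7 measured enzymes of the complex had groups that did not overlap, each lower on the Hemangioblast arrays. Lower in this way were 22.0% of all genes and 34.7% of those with a mean scaled intensity of at least 500. Changes over all 7 spanned -0.44 to 0.18.

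Outside the complex, 4 of 10 enzymes grouped here as cytosolic were lower on both Hemangioblast arrays than on either hCD4 array. The shares were the same 22.0% of all genes and 34.7% of those with a mean of at least 500, as all but Nars had. Tars, for threonine, was at 811 and 799 against 1047 and 953 (change -0.31, SE 0.151, adjusted p = 0.385), and Yars, for tyrosine, at 590 and 526 against 683 and 628 (change -0.23, adjusted p = 0.606). A dimmer probe set of Yars overlapped, at 186 and 288 against 217 and 188 (change 0.19). Aars, for alanine, was level at 603 and 592 against 558 and 595 (change 0.05). Gars, for glycine, was at 1689 and 1290 against 1444 and 1798, and Wars, for tryptophan, at 806 and 950 against 853 and 1143, and both overlapped. Another probe set of Wars was lower without overlap but not called, at 524 and 563 against 626 and 610 (change -0.18). The dimmest of Wars overlapped (change -0.25).

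The 5 genes grouped here as mitochondrial (Fars2, Iars2, Rars2, Sars2 and Tars2), whose enzymes serve a separate protein synthesis system, had changes from 0.04 to 0.30, all above 0. Whether other measured synthetase genes also serve mitochondria was not examined. The highest was Iars2 at 758 and 667 against 660 and 500 (SE 0.190, adjusted p = 0.527), and the arrays of the other 4 overlapped. The difference between these 5 genes and the other synthetase genes was not tested. The shared sign does not hold under every setting: with median scaling Rars2 and Sars2 were under 0 (lowest -0.04), and without hCD4 replicate 2 Fars2 and Tars2 were (lowest -0.15). Rars2 was under 0 without Hemangioblast replicate 1, and Sars2 without Hemangioblast replicate 2 and with the mean of its probe sets. Of 4 measured translation factors of mitochondria 3 were under 0: Tufm at 483 and 626 against 692 and 810, with no overlap (change -0.43, adjusted p = 0.307), Tsfm (change -0.13) and Gfm1 (change -0.12). Mtif2 had a change of 0.24.

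Synthetase genes are textbook targets of ATF4, the transcription factor made when eIF2 is inactivated, which acts through an element read here as TGATGNAA on either strand, N being any base. RefSeq start-site windows of GRCm38.p6, 250 bases before to 50 after each annotated start, were found for 55 of the 70 genes. The element stood in 5 of 15 synthetase genes with a window (33.3%), in 1 of 35 initiation genes (2.86%) and in 1 of 5 elongation genes, against 4.51% of the 27025 genes with windows and 3% of the array's genes with windows. Matches of 4 of these synthetase genes are shown because the element is the feature they share, in the direction of the gene, with the match in capitals:
Gars (chr6:55037960-55037989, plus strand): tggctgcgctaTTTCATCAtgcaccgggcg
Iars (chr13:49682126-49682155, plus strand): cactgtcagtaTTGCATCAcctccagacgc
Tars (chr15:11399655-11399684, minus strand): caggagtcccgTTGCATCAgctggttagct
Yars (chr4:129189895-129189924, plus strand): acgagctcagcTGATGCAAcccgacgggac

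The changes of the 5 synthetase genes with the element ran from -0.31 (Tars) to 0.05 (Aars), with a median of -0.13, and none was called. The 10 synthetase genes whose windows lacked the element had changes from -0.44 to 0.30 and a median of 0.05, with 4 under 0. They included the genes grouped as mitochondrial, which were all above 0. Synthetase genes without a window, Vars (change -0.46) among them, are in neither group. The median over all 22 was -0.15, and the difference between genes with and without the element was not tested. A match is a run of letters, not a measured binding site.

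The E-box CACGTG, the textbook element of Myc, a transcription factor that drives many growth genes, was read in the same windows (it reads alike on both strands). It stood in 13 of the 55 member genes (23.6%), 8.09% of all genes with windows and 11.5% of the array's genes with windows. Matches of 4 factors described above are shown, with the E-box in capitals:
Eif4e (chr3:138527028-138527057, plus strand): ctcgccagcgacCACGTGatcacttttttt
Eif4e (chr3:138527192-138527221, plus strand): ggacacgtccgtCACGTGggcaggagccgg
Eif4a1 (chr11:69672595-69672624, minus strand): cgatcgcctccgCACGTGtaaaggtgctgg
Eif3a (chr19:60790654-60790683, minus strand): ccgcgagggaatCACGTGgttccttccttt
Eef2 (chr10:81176576-81176605, plus strand): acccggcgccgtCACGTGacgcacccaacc

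The 13 genes with an E-box had changes from -0.66 (Eif4e) to 0.47 (Eef2k), with a median of 0.03 and 6 of 13 under 0.

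The lean of the members went along with their brightness. Of the 48 members with a mean scaled intensity of at least 500, a limit set after the data were seen, 40 (83.3%) had a change under 0, with a median of -0.23 and 26 (54.2%) lower without overlap. Among all 2513 genes that bright, 57.8% were under 0, the median was -0.06 and 34.7% were lower without overlap. Of the 22 dimmer members 6 were under 0, with a median of 0.12, against 43.0% and 0.06 for all dimmer genes. The median of the members minus that of all genes was -0.19 on the log2 scale with the reported scaling and -0.10 with quantile normalization. With 1 array left out it ran from -0.32 (without Hemangioblast replicate 1) to -0.11 (without Hemangioblast replicate 2). The part of brightness in the lean was not tested.

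**Figure D4:**
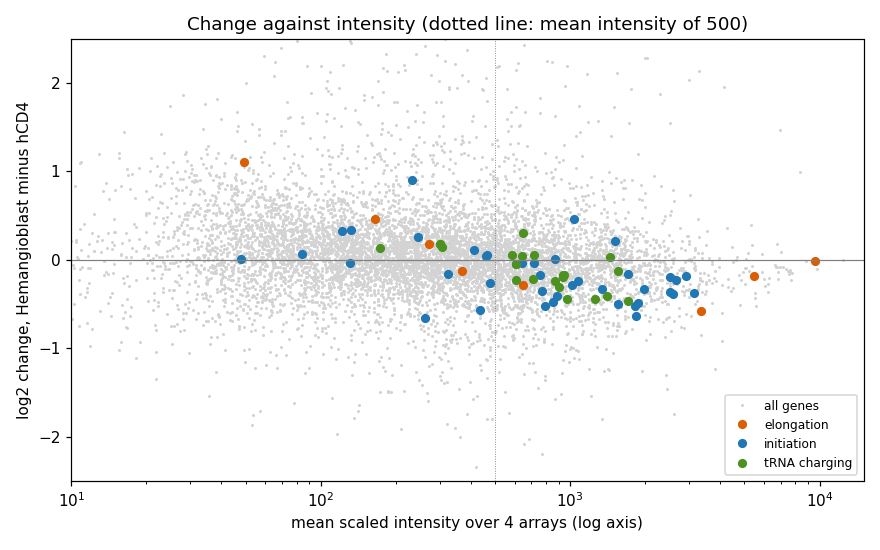
Log2 change (y axis, Hemangioblast minus hCD4) against mean scaled intensity over 4 arrays (x axis, log scale) for all genes (grey) and the 3 classes of members, with 192 genes outside the axes. To the right of the dotted line at 500, 40 of 48 members lie below 0.

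Other genes of the pathway, from lists written with the members, were read beside them. Of 43 measured, 2 were called higher and 0 lower, where 3.43% and 1.95% of all genes were. Changes were under 0 for 29 (67.4%, against 47.5% of all genes), with a median of -0.12. Pdcd4, whose protein binds eIF4A and blocks its helicase, was at 747 and 664 against 330 and 330 (change 1.06, SE 0.174, adjusted p = 0.0134). Of the eIF4A genes, Eif4a2 had a change of -0.64 and Eif4a1 of 0.32 with overlapping arrays. A link of either to Pdcd4 was not tested. Sesn1, a sestrin that holds back the growth kinase mTORC1, was at 454 and 420 against 203 and 142 (change 1.29, SE 0.236, adjusted p = 0.0210). The call of Pdcd4 was lost without Hemangioblast replicate 1 (adjusted p = 0.0504) and without either hCD4 array (0.0864 and 0.0942), and that of Sesn1 without any 1 array but hCD4 replicate 1 (0.0741 to 0.126). Both calls were also lost without scaling (0.0602 and 0.0841) and without an intensity trend (0.0890 and 0.0889).

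None of the 12 measured genes listed for the stress response through eIF2 was called. Atf4 was at 1749 and 1503 against 1596 and 1493 (change 0.07, adjusted p = 0.896) and its target Asns, the asparagine synthetase gene, at 1372 and 1516 against 1632 and 1643 (change -0.18). Ppp1r15a, which directs the removal of the inactivating phosphate from eIF2, was at 492 and 329 against 698 and 839 (change -0.90, SE 0.223, adjusted p = 0.0660). Ddit3, a stress-induced transcription factor, was at 41.0 and 22.0 against 0.936 and 1.09, near the floor on the hCD4 arrays, and missed the threshold too (adjusted p = 0.0709). Over the 12 genes of this list 5 changes were above 0 and 7 below.

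Nearer the members, Aimp2, a scaffold of the multisynthetase complex, was at 1518 and 1035 against 1757 and 1906 (change -0.54, adjusted p = 0.204). Pabpc1, which binds the poly(A) tail and bridges it to the cap, was at 4085 and 5303 against 6292 and 6298 (change -0.43, adjusted p = 0.221). Etf1, the factor that ends translation at a stop codon, was at 1630 and 1612 against 2132 and 2338 (change -0.46, adjusted p = 0.128). By list, changes were under 0 for 4 of 4 genes of termination and recycling, 4 of 4 of the synthetase scaffolds and the phenylalanine enzyme, 3 of 3 of poly(A) binding, 3 of 4 of mitochondrial translation, 5 of 10 of the cap-binding kinases and mTOR, and 3 of 6 other helpers, against 47.5% of all genes. These values and those of Asns, Atf4, Ppp1r15a and Ddit3 were picked after they were seen.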

How the data were processed

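The authors deposited 1 intensity per probe set and array, linear and above 0, with software, background correction and scaling not given in the sources used here. Per the labels' protocols, 20 ug of unamplified TRIzol RNA was labelled. All 4 value columns were used. The 66 array-maker controls were left out of 12488 probe sets. Arrays were scaled to the average trimmed mean (2% trimmed at each end), and log2(value + 16) was fitted with limma 3.58.1 in R 4.3.3 (lmFit, eBayes with an intensity trend, two-sided, 2 arrays a group, no block, no filter on dim probe sets). Residual degrees of freedom were 2 and prior ones 6.18. The script was tested on simulated data. Two-sided exact permutation of 2 arrays against 2 cannot reach the threshold and was not used. Number of arrays limits the precision.

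Genes were named from the platform annotation. All 70 members matched the RefSeq table by gene identifier. Symbols are those of that annotation. Members, lists and tests were chosen with earlier results of these data known. Genes named by rule were members past the threshold, the 8 smallest adjusted p-values in each class and 34 listed genes (31 measured), 44 in all. A further 11 (eIF3, eIF2B, Eif1a and Eif1ax genes) were given to complete their groups, and others by ranges or, with values, after they were seen. The titles number the arrays but do not say whether same-numbered arrays are pairs. Deviations of same-numbered arrays from their group means correlated with r of -0.0078, which cannot show how the arrays were prepared. With a replicate block 710 probe sets were called, against 556 without it. Alternatives were an added constant of 1 or 64, median, quantile or no scaling, leaving out probe sets under a mean of 50 (68 members passed), other variance models, a replicate block, the mean of a gene's probe sets, each array left out, and bright genes alone (chosen after seeing the data).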

Additional observations from a re-analysis of the deposited data

How the results depend on the processing

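One gene was called lower among all 70 members and among the 40 of initiation. That count was 0 with an added constant of 64, with median scaling, without scaling, with quantile normalization, without an intensity trend and with the replicate block, and 0 to 2 with 1 array left out. With dim probe sets left out it was 2 among all members, including 1 of elongation. No setting called a member higher. The count of 556 probe sets was 272 without scaling, 883 with dim probe sets left out, 220 without an intensity trend and 219 to 517 with 1 array left out. Eif4a2 stayed under 0 in every setting run.

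The median change of all members (-0.17) was -0.25 with median scaling, which moves the median of all genes to -0.05, -0.23 for bright genes alone, and -0.26 to -0.12 with 1 array left out. For initiation (-0.19) it was -0.27 with median scaling, -0.31 for bright genes and -0.28 to -0.12 with 1 array left out. For elongation (-0.07) it was -0.23 for bright genes and -0.18 to 0.11 with 1 array left out, turning sign without Hemangioblast replicate 1. For tRNA charging (-0.15) it was -0.23 with median scaling, -0.093 with quantile normalization, -0.085 with the mean of a gene's probe sets, -0.18 for bright genes, and -0.18 to -0.022 with 1 array left out, the last without hCD4 replicate 2.

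Signs turned only for genes that were not called. With median scaling Aars was at -0.033, Eif2ak3 at -0.062 and Eif3e at -0.070. Eef1a1 was at 0.011 without scaling, and Eif2ak3 at -0.0031 with a constant of 64 and -0.23 with quantile normalization. With 1 array left out the changes ran from -0.19 to 0.16 for Eef1a1, -0.28 to 0.64 for Eef1b2, -0.42 to 0.056 for Eef2, -0.48 to 0.49 for Eif2ak3, -0.32 to 0.00044 for Eif2ak4, -0.044 to 0.074 for Eif3e, -0.41 to 0.095 for Eif3j1, -0.33 to 0.97 for Eif4a1, -0.29 to 0.21 for Eif4g2, -0.0056 to 0.42 for Eif5 and -0.30 to 0.22 for Eif5a. They ran from -0.50 to 0.12 for Eprs, -0.32 to 0.067 for Gars, -0.060 to 0.41 for Kars, -0.12 to 0.48 for Nars and -0.38 to 0.037 for Wars. The causes were not tested. With 1 array left in a group, that array is assumed to vary like the others. The number of arrays limits what could be detected: the median SE of a change was 0.27.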
